A study of Mus musculus with 4 samples.

Results

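Phlda3, Phlda1 and Akt1, 3 of the 32285 genes in the deposited count tables, were followed through muscle cells of irradiated and shielded mouse hindlimbs. They were matched by symbol, and UMIs (unique molecular identifiers, each standing for a captured transcript) were counted in every barcode that held 500 UMIs or more from 200 genes or more, of which no more than 20% were mitochondrial. The 3 genes were chosen from values of these same libraries, namely their UMI levels and their irradiated over control ratios. Those levels and ratios are therefore given as a description, with no test.

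Male C57Bl/6J mice received X-rays on 1 hindlimb at 5 weeks of age, as 3 fractions of 8.2 Gy, while the rest of the animal was under lead. The opposite limb was the control, so every control limb (CON) came from an animal that carried an irradiated limb (IR). Limbs were taken 24 hours after the last fraction or 56 days after irradiation, dissociated with enzymes and sorted by FACS for live cells with a single nucleus, at least 10000 per group. Each of the 4 groups was 1 library made from 3 pooled limbs, so differences between mice cannot be separated from differences between groups, and no group has a replicate. In all groups the strain, sex and age at irradiation were the same. The pairs at 24 hours and at 56 days also differ in the age of the mice at sampling and in library.

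PHLDA3 is a small protein made up mostly of a pleckstrin homology (PH) domain, a fold that binds phosphoinositide lipids of the cell membrane. The kinase AKT1 uses its own PH domain to reach the same lipids after growth factor signalling, where it is activated and promotes survival and growth, and PHLDA3 can compete with it there and so repress it. Phlda3 is known as a transcriptional target of p53, the DNA damage response factor, whereas its relative Phlda1 is known as a gene that answers to growth factors and stress.

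In the GENCODE M21 annotation of GRCm38 (mm10), the build of the count tables, Phlda3 lies at chr1:135766119-135769136 on the + strand and overlaps no other annotated gene. Phlda1 lies at chr10:111506286-111508645 on the + strand, where it overlaps the antisense lincRNA Gm28592. Akt1 lies at chr12:112653821-112674884 on the - strand and contains the microRNA gene Mir6939. The counting settings for strand are not given in the sources used here, so reads of Phlda1 and Gm28592 may not be separated fully.

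The 250 bases before an annotated start are shown for the p53 target and for the kinase, because the results below set the one against the other. They are RefSeq sequence of GRCm38.p6, written 5′ to 3′ on the strand of the gene, with every CG dinucleotide in capitals. The Phlda3 stretch is chr1:135765835-135766084 (+), and the Akt1 stretch, for the more CG-rich of its annotated starts, is chr12:112674277-112674526 (-).
Phlda3: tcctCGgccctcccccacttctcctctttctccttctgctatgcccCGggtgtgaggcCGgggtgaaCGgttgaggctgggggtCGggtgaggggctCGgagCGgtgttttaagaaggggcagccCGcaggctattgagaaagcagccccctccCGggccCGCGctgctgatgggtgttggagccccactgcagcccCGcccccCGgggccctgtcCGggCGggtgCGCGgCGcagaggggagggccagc
Akt1: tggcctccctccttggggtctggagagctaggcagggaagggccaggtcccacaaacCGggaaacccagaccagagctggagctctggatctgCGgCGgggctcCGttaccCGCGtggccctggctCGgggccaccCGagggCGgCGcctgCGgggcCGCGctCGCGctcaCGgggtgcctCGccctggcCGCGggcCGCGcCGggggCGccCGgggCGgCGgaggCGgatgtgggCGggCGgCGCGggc
The Phlda3 stretch held 18 CG dinucleotides and was 71.2% G or C, and 21.7% of the 32817 RefSeq stretches of that length held at least as many. The Akt1 stretch held 31 and was 78.4% G or C, a number reached by 5.2% of stretches.

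Windows of 300 bases, from 250 before a start to 50 after it, were searched for CATG, a core of the p53 half-site that reads the same on both strands. Phlda3 held 1 match, which begins at base 46 counted from the RefSeq start as base 1, and it is shown with CATG in capitals (chr1:135766117-135766134, +).
Phlda3 CATG: gcgagcggtggaaCATGt
The window of the other Akt1 start also held 1 match, 88 bases before the start (chr12:112674956-112674985, -), and the window of the Akt1 start shown above held 0.
Akt1 CATG: aaaataccaaacaCATGaaggtaaattcac
CATG was present in 61.1% of all windows. No complete match to the full p53 half-site consensus, searched on both strands, lay within the Phlda3 window or either Akt1 window. Of all windows, 8.36% held one. The Phlda3 window ends with the last base shown, so a half-site around its CATG could not be searched in full. Whether Phlda3 has one there was not tested.

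Of 7086 deposited barcodes, 6544 were kept: 1336 and 2539 in the CON and IR libraries at 24 hours, and 1700 and 969 at 56 days. Kept libraries held between 4543545 and 9751722 UMIs, with a median of 3057 to 3627 UMIs per barcode. Of 7075 distinct barcodes, 11 occurred in 2 or more libraries. Barcodes were placed in classes by markers, and a class is called "-like" because only RNA was measured. The gates used at least 2 markers and a lead of at least 2 over the next class. Endothelial-like cells numbered 485, 1574, 806 and 489 in CON and IR at 24 hours and then at 56 days, which is 36.3%, 62.0%, 47.4% and 50.5% of each library. All 10 endothelial markers were detected among them in every library. Values below follow that order of libraries unless a library is named.

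Summed over all 6544 barcodes, Phlda3 had 6424 UMIs and ranked 620 among 22148 genes with any UMI. Akt1 had 2323 UMIs and ranked 2118, and Phlda1 had 1225 and ranked 4055. Levels below are CPM, the UMIs of the gene per 1000000 UMIs of the class in that library. Intervals are exact at 95% and cover counting error only, so they say nothing of the spread between mice. A ratio is given where both libraries had at least 25 cells of the class, and a gene counts as measured with at least 20 UMIs in the 2 libraries together.

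Phlda3, the p53 target and Akt repressor, was higher in irradiated than in control endothelial-like cells at both times. Its level was 125.6, 551.5, 41.74 and 471.9 CPM, from 228, 3193, 113 and 957 UMIs. Both irradiated libraries were above both control libraries, and the 4 intervals did not overlap. The IR over CON ratio was 4.39 (3.84 to 5.04) at 24 hours and 11.3 (9.29 to 13.9) at 56 days. Among all genes measured in this class, 19.0% had an interval above 1 at 24 hours and 18.2% at 56 days; since the gene was chosen on this contrast, nothing is read from that position.

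The 2 ratios rest on different controls. The control at 56 days stood at 0.332 of the control at 24 hours (0.263 to 0.418), whereas the irradiated library at 56 days stood at 0.856 of that at 24 hours (0.795 to 0.920). Thus the larger ratio at 56 days came with a lower control level and a slightly lower irradiated level. Age, library and time since irradiation cannot be told apart in these pairs.

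**Figure D1:**
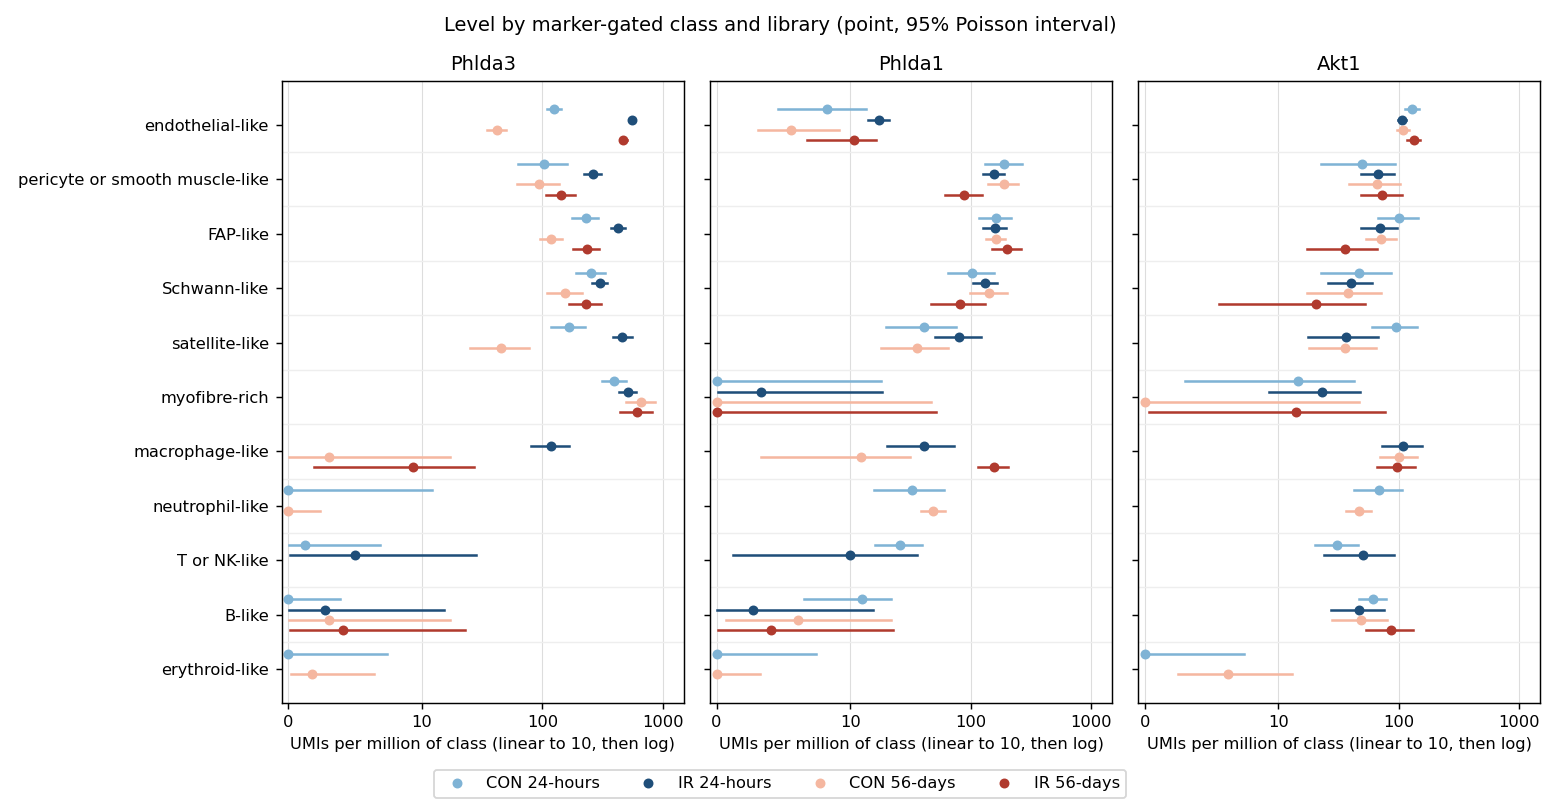
Level of Phlda3, Phlda1 and Akt1 in CPM (x axis, linear to 10 and logarithmic above) in each marker-gated class with at least 25 cells (y axis). Points are the 4 libraries and lines their 95% Poisson intervals; endothelial-like Phlda3 was 551.5 and 471.9 in the irradiated libraries and 125.6 and 41.74 in the controls.

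Single cells showed where these molecules lay. A Phlda3 UMI was found in 25.4%, 68.9%, 9.18% and 63.0% of endothelial-like cells, whose median depths were 3310, 3096, 2955 and 3550 UMIs. B-like cells are read beside them as an immune class with little Phlda3, which was known when they were taken for this. They had 0 of 250, 1 of 109, 1 of 76 and 1 of 62 cells with a UMI at median depths of 3133, 3215, 3206 and 3052. Here and below a count of 0 is read as allowing up to 3 counts, so the 0 of 250 allows a share of up to 1.2%.

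After each cell was thinned to 1000 UMIs, 422, 1344, 693 and 431 endothelial-like cells remained, and 63, 230, 113 and 58 shallower cells were left out. The shares with a Phlda3 UMI were then 9.00% (6.45 to 12.2), 40.6% (37.99 to 43.3), 3.75% (2.46 to 5.45) and 33.9% (29.4 to 38.6). Both irradiated shares lay above both control shares with intervals apart. In thinned B-like cells the share was 0 in every library, which allows up to 1.24%, 2.97%, 4.05% and 4.84%. The endothelial-like control at 56 days (3.75%) lay below the share that its B-like cells allow. Cells with 3 or more Phlda3 UMIs at this depth made up 2.16% of irradiated cells at 24 hours and 3.25% at 56 days. No control cell reached that number, which allows up to 0.711% of 422 cells and 0.433% of 693.

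With all UMIs counted, 5.57% of control and 31.1% of irradiated endothelial-like cells held 3 or more Phlda3 UMIs at 24 hours, and 0.869% and 26.0% at 56 days. The highest single cell held 8, 17, 11 and 17 UMIs. The variance over the mean of the thinned counts was 1.13, 1.09, 1.10 and 1.31, with no separation of irradiated from control libraries. With all UMIs counted, most irradiated cells thus held a Phlda3 UMI, and a minority of control cells did. At 1000 UMIs per cell the irradiated shares were 40.6% and 33.9%, so the share depends on depth.

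**Figure D2:**
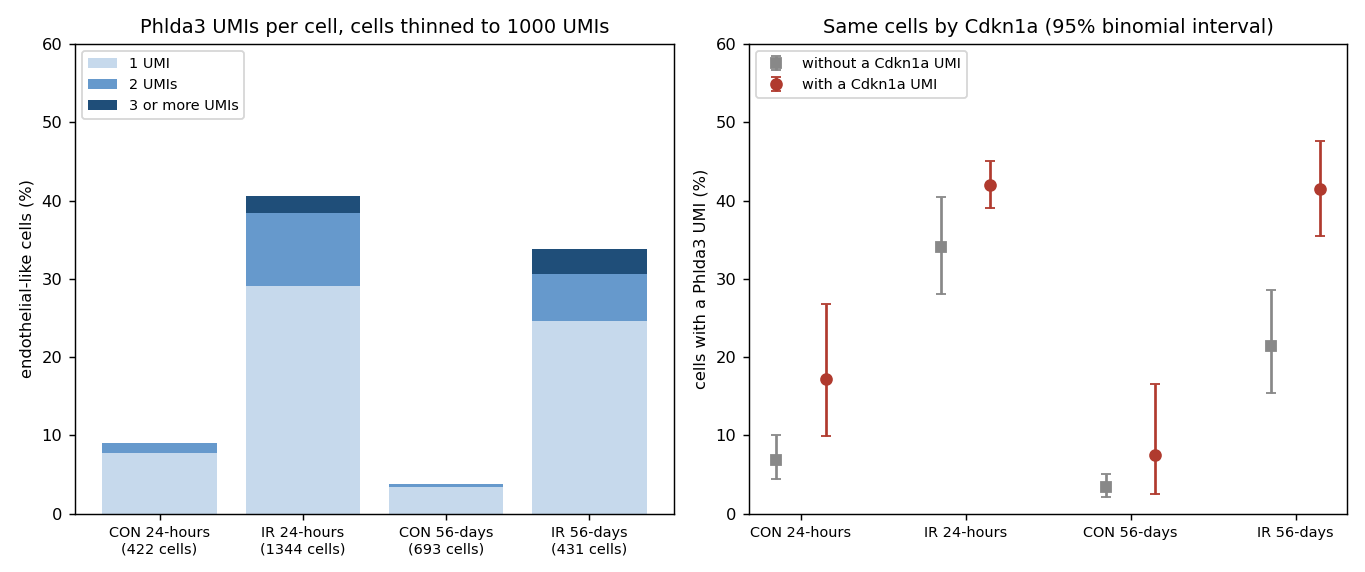
Left, share of endothelial-like cells (%) with 1, 2 or 3 or more Phlda3 UMIs after thinning to 1000 UMIs per cell, by library; the bars reach 9.00%, 40.6%, 3.75% and 33.9%. Right, share of the same cells with a Phlda3 UMI (%) by whether a Cdkn1a UMI was present, with 95% binomial intervals; at 56 days after irradiation the shares were 41.4% and 21.5%.

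Cdkn1a, the cell cycle inhibitor p21 and a classical p53 target, was compared with Phlda3 cell by cell at the same thinned depth. In CON at 24 hours, Phlda3 was found in 17.2% of cells with a Cdkn1a UMI and in 6.87% of cells without. In IR at 24 hours the shares were 42.0% and 34.0%. In CON at 56 days they were 7.46% and 3.35%, from only 67 cells with Cdkn1a. Cells of a library are not replicates, so these shares describe each library. The order was the same in these 4 libraries, but the intervals were apart only in IR at 56 days, with 41.4% (35.5 to 47.6) against 21.5% (15.4 to 28.6). By Mdm2, another p53 target, the intervals were apart in IR at 24 hours, at 48.7% (42.7 to 54.8) with it and 38.5% (35.6 to 41.5) without. They overlapped in the other libraries, with 41.9% (24.55 to 60.9) against 33.25% (28.65 to 38.1) in IR at 56 days.

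Cdkn1a itself stood at 305.3, 2366, 158.1 and 1425 CPM in endothelial-like cells, a ratio of 7.75 (7.12 to 8.45) at 24 hours and 9.01 (8.14 to 10.0) at 56 days. Mdm2, the p53 target that encodes the ligase degrading p53, stood at 54.55, 247.8, 36.57 and 94.67 CPM, a ratio of 4.54 (3.70 to 5.63) and then 2.59 (2.02 to 3.33). In irradiated cells the level at 56 days over that at 24 hours was 0.602 for Cdkn1a and 0.382 for Mdm2, beside 0.856 for Phlda3. These differences between genes were not tested.

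Connective tissue, muscle stem and mural classes gave Phlda3 ratios between 1.85 and 2.79 at 24 hours, beside 4.39 in endothelial-like cells; differences between classes were not tested. FAP-like cells, which carry markers of fibro-adipogenic progenitors, the muscle's connective tissue precursors, stood at 229.1, 423.9, 118.5 and 233.5 CPM. Each irradiated library was above the control of its time, but IR at 56 days was level with CON at 24 hours. The ratio was 1.85 (1.395 to 2.48) and 1.97 (1.405 to 2.75), where 9.22% and 9.68% of genes measured in the class had an interval above 1. Endothelial marker UMIs occurred in 10.2% to 30.6% of these cells, at summed levels of 40.46 to 168.2 CPM and with 1 to 5 of the 10 markers at 0. In FAP-like cells with none, each irradiated library was again above the control of its time, at 195.5, 351.6, 102.8 and 239.3 CPM.

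Satellite-like cells, which carry markers of muscle stem cells, stood at 165.5 and 462.5 CPM in CON and IR at 24 hours, a ratio of 2.79 (1.94 to 4.09), where 12.2% of genes had an interval above 1. At 56 days the control held 45.76 CPM in 60 cells, and the irradiated library 237.3 CPM in 24 cells, too few for a ratio. The control level at 56 days was 0.276 of that at 24 hours (0.139 to 0.519).

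Pericyte or smooth muscle-like cells, the mural cells that wrap vessels, stood at 103.4, 262.1, 94.29 and 143.4 CPM. The ratio was 2.53 (1.57 to 4.32) at 24 hours, where 5.78% of genes had an interval above 1, and it was 1.33 once cells were thinned. At 56 days it was 1.52, with an interval that holds 1 (0.938 to 2.53), and 10.4% of genes were above. Between 59.6% and 76.6% of these cells also held an endothelial marker UMI, with the summed level of the 10 markers between 275.6 and 688.5 CPM and 1 to 4 of them at 0. In the 19, 36, 17 and 27 cells with none, Phlda3 stood at 120.4, 340.9, 63.45 and 136.5 CPM, from 4, 34, 4 and 15 UMIs.

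Schwann-like cells, the glia of peripheral nerve, already held Phlda3 in the control limb. They stood at 253.7, 298.6, 154.9 and 229.8 CPM, and both intervals of the ratio hold 1, at 1.18 (0.863 to 1.63) and 1.48 (0.939 to 2.36), where 11.6% and 8.33% of genes were above. With thinned cells the ratio at 56 days was 2.53. Cdkn1a was likewise present in control Schwann-like cells, at 1015 CPM at 24 hours and 1063 at 56 days. Its ratio was 2.03 (1.75 to 2.36) and then 1.03 (0.857 to 1.24).

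Myofibre-rich barcodes had the highest Phlda3 level of any class with at least 25 cells in both controls and in IR at 56 days. Only in CON at 56 days was their interval apart from that of the next class. Such barcodes have at least 5% of UMIs from myofibre genes. Their median depth of 938 to 1520 UMIs was below that of their libraries, so they are not called a cell type. Phlda3 stood at 395.2, 510.8, 658.2 and 611.3 CPM, with ratios of 1.29 (0.982 to 1.71) and 0.929 (0.607 to 1.42), both holding 1, where 9.92% and 7.71% of genes were above. Cdkn1a in the same barcodes was 29.28, 234, 37.97 and 180.6 CPM, ratios of 7.99 (3.50 to 22.5) and 4.76 (1.31 to 26.0). The Cdkn1a ratios rest on 6 and 71 UMIs at 24 hours and on 3 and 13 at 56 days, with intervals above 1. Both Phlda3 intervals hold 1, but the ratio at 24 hours includes the control barcode described next. The difference between the genes was not tested.

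A single barcode held 40 of the 81 Phlda3 UMIs of the myofibre-rich control at 24 hours (49.4%). Without the richest barcode of each library the ratio was 1.47 at 24 hours and 0.953 at 56 days. No interval was computed for these values. Few of these barcodes held an endothelial marker UMI, and those without one stood at 402.7, 538.5, 751.3 and 611.3 CPM. Summed endothelial markers were 0 to 65.9 CPM, with all 10 at 0 in IR at 56 days.

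The share of thinned cells with Phlda3 was also read in the remaining classes. A Phlda3 UMI was found in 16.7%, 27.3%, 15% and 20% of FAP-like cells, in 17.1%, 21.9%, 5.36% and 8.82% of pericyte or smooth muscle-like cells, and in 17.6%, 27.3%, 10.53% and 26.7% of Schwann-like cells. Satellite-like cells had 18.8% and 33.9% at 24 hours, and myofibre-rich barcodes 37.3% and 37.8%. Each of these irradiated shares was above its control, with intervals that overlap. Tenocyte-like cells, which carry tendon markers, numbered only 2, 5, 17 and 8, and held Phlda3 at 69.93, 418.4, 85.94 and 452.5 CPM.

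In immune and blood classes Phlda3 was near 0, except in 1 library. T or NK-like cells held 1 UMI in each library, neutrophil-like cells 0 or 1, and erythroid-like cells 0 to 2. Macrophage-like cells held 32 UMIs in IR at 24 hours, in 11 of 36 cells and with 10 of them in 1 cell, or 118.5 CPM (81.1 to 167). At 56 days they held 1 UMI in 46 control cells and 3 in 38 irradiated cells, and the 15 control cells at 24 hours held 0, which allows up to 25.6 CPM. Too few control cells were present at 24 hours for a ratio.

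In IR at 24 hours the endothelial-like (551.5), myofibre-rich (510.8), satellite-like (462.5) and FAP-like (423.9) intervals each met the next. In CON at 56 days the myofibre-rich level (658.2) stood apart from the next, Schwann-like (154.9). In all 4 libraries the immune and blood classes came last, and most of their intervals met each other. Endothelial-like cells, first in IR at 24 hours, were below Schwann-like cells in both controls.

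**Figure D3:**
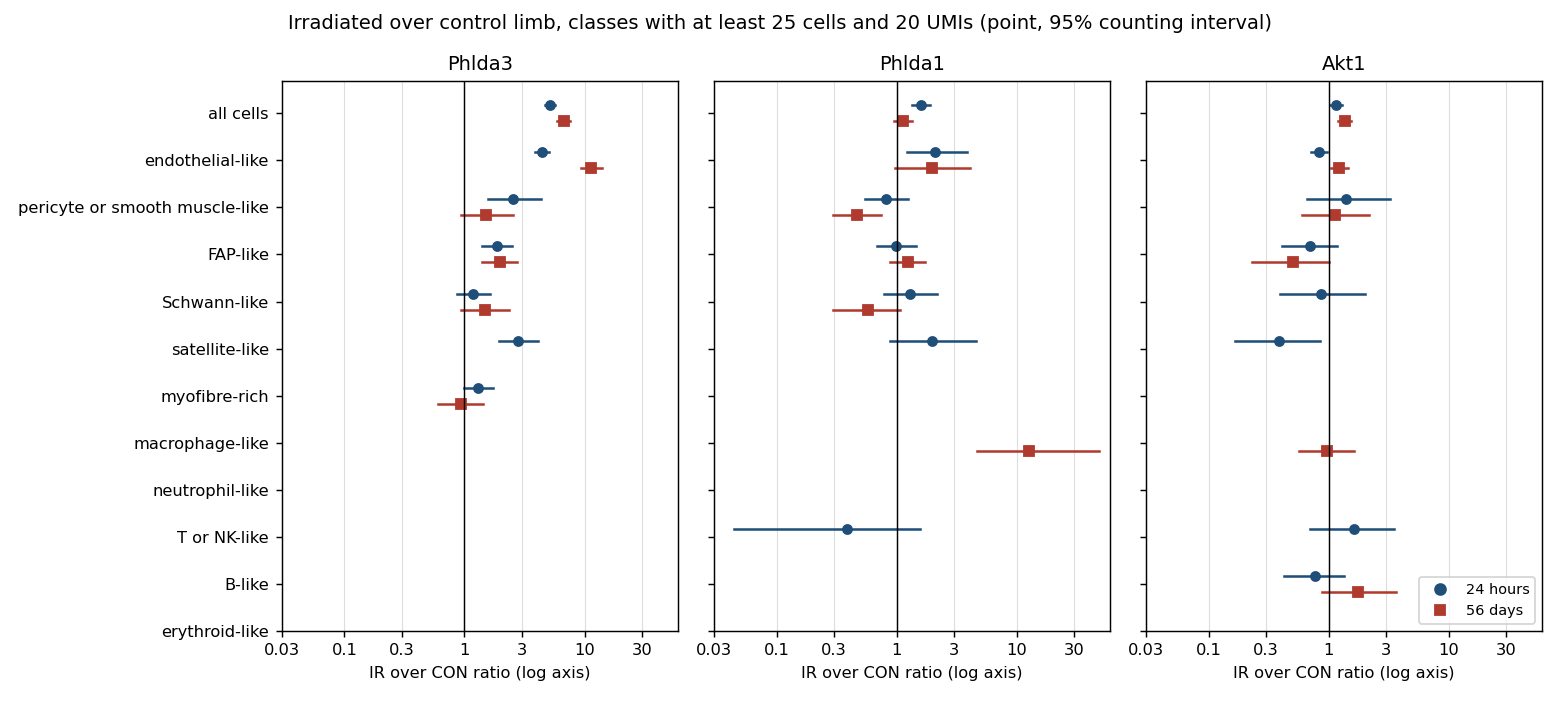
IR over CON ratio (log axis) of Phlda3, Phlda1 and Akt1 in all cells and in each class with at least 25 cells in both libraries and 20 UMIs, at 24 hours (circles) and 56 days (squares), with 95% counting intervals. The endothelial-like Phlda3 ratios of 4.39 and 11.3 lie to the right, and most Phlda1 and Akt1 intervals meet the line at 1.

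Phlda1, the PH-domain relative of Phlda3, was held mainly by other classes. Pericyte or smooth muscle-like cells stood at 190.5, 155.4, 188.6 and 88.66 CPM, FAP-like cells at 161.1, 159.9, 162.7 and 201.2, and Schwann-like cells at 103.4, 132.5, 142.3 and 81.72. Endothelial-like cells held 8.265, 17.27, 5.541 and 10.85 CPM. Endothelial-like cells, with the largest Phlda3 ratio of the measured classes at both times, were thus not among those with most Phlda1. FAP-like cells had the next largest measured Phlda3 ratio at 56 days, 1.97.

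In endothelial-like cells the Phlda1 ratio was 2.09 (1.21 to 3.87) at 24 hours, from 15 and 100 UMIs, and 1.96 (0.971 to 4.06) at 56 days, from 15 and 22. A UMI was found in 2.68%, 4.45%, 1.61% and 3.48% of these cells, beside 2.8%, 0.917%, 1.32% and 1.61% of B-like cells. After thinning, only 0.474%, 1.34%, 0.433% and 1.39% of these cells held a UMI, beside 0.413%, 0.990%, 0 and 1.61% of B-like cells. These thinned shares rest on 2, 18, 3 and 6 endothelial-like cells and on 1, 1, 0 and 1 B-like cells. B-like cells were taken for their low Phlda3, and the counts are few, so they cannot set a background for Phlda1. Whether the endothelial-like shares lie above background was not tested.

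In FAP-like cells, where Phlda1 was well detected, the ratio was 0.993 (0.683 to 1.46) at 24 hours and 1.24 (0.883 to 1.71) at 56 days. In pericyte or smooth muscle-like cells it was 0.815 (0.550 to 1.24) and then 0.470 (0.296 to 0.738), from 52 and 34 UMIs, where 6.53% of genes had an interval below 1. Schwann-like cells gave 1.28 (0.791 to 2.16) and 0.574 (0.296 to 1.07). Satellite-like cells gave 1.95 (0.887 to 4.62) at 24 hours from 10 and 22 UMIs. With thinned cells the FAP-like ratio was 0.682 at 24 hours and 0.778 at 56 days, the Schwann-like ratio 0.847 and 1.52, and the satellite-like ratio 0.542 at 24 hours. Of these 5, 4 lie on the other side of 1 from the values above. Without thinning, the pericyte or smooth muscle-like value at 56 days was the one whose interval lay below 1. Of its 52 control UMIs, 12 lay in 1 of 58 cells. Under other settings this ratio was 0.329 to 0.524, given without intervals.

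Macrophage-like cells at 56 days held 4 Phlda1 UMIs in the control and 50 in the irradiated library, 12.24 and 155.7 CPM. The ratio was 12.7 (4.67 to 48.5), where 7.06% of genes had an interval above 1. The 50 UMIs lay in 9 of 38 cells, with 23 in 1 cell (46%), and without the richest cell of each library the ratio was 9.45. Neutrophil-like cells of the 56 days control held 77 UMIs in 230 cells, 49.17 CPM, and erythroid-like cells held none in any library.

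Akt1, the kinase that PHLDA3 represses, was highest in endothelial-like cells in 3 libraries and in macrophage-like cells in IR at 24 hours, among classes of at least 25 cells. In each library the interval of the first class met that of the next. Endothelial-like cells stood at 129.5, 106.6, 109 and 133.1 CPM, from 235, 617, 295 and 270 UMIs, with no separation of irradiated from control libraries. The ratio was 0.823 (0.707 to 0.961) at 24 hours, where 11.3% of genes measured had an interval below 1, and 1.22 (1.03 to 1.45) at 56 days. Both differ from 1 by less than 1.5-fold, in opposite directions.

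An Akt1 UMI was found in 33.8%, 28.3%, 25.9% and 36.0% of endothelial-like cells, and in 17.6%, 14.7%, 18.4% and 20.97% of B-like cells. By share of thinned endothelial-like cells Akt1 was at 13.03% (9.97 to 16.6), 9.75% (8.21 to 11.46), 9.67% (7.57 to 12.1) and 11.4% (8.53 to 14.8), and these intervals overlap. Thinned B-like cells had 7.44%, 5.94%, 5.41% and 3.23%. Phlda3 was found in 44.3% of irradiated cells with an Akt1 UMI at 24 hours (35.6 to 53.2) and in 40.2% without (37.5 to 43.0). At 56 days after irradiation these shares were 38.8% (25.2 to 53.8) and 33.2% (28.5 to 38.2). In the controls they were 10.9% and 8.72% at 24 hours, and 10.4% (4.31 to 20.4) and 3.04% (1.84 to 4.70) at 56 days. The share was higher with Akt1 in these 4 libraries, with pairs of intervals that overlap, and the differences were not tested.

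Elsewhere Akt1 rested on few UMIs. Macrophage-like cells stood at 107.4 CPM in IR at 24 hours, then 101 in CON and 96.51 in IR at 56 days, beside the endothelial-like cells at the top of the order. FAP-like cells stood at 100.2, 69.36, 71.68 and 35.92 CPM, and their ratio at 56 days was 0.501 (0.227 to 0.997) from 52 and 10 UMIs, where 10.1% of genes had an interval below 1. With thinned cells it was 0.139. Satellite-like cells at 24 hours gave 0.386 (0.164 to 0.842) from 23 and 10 UMIs, where 7.59% of genes were below. Of the 23 control UMIs, 8 lay in 1 of 32 cells. Under other settings this satellite-like ratio was 0.271 to 0.462, given without intervals. In B-like cells the ratio was 0.769 (0.420 to 1.34) at 24 hours and 1.76 (0.873 to 3.60) at 56 days, the latter turning to 0.477 with thinned cells.

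Erythroid-like and myofibre-rich barcodes held between 0 and 7 Akt1 UMIs in each library.

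Over all cells together, the Phlda3 ratio was 5.12 (4.67 to 5.62) and 6.68 (5.93 to 7.54), and the Phlda1 ratio 1.58 (1.33 to 1.88) and 1.13 (0.944 to 1.34). The Akt1 ratio was 1.14 (1.01 to 1.27) at 24 hours and 1.35 (1.19 to 1.54) at 56 days. Of all genes measured over all cells, 47.3% had an interval above 1 at 24 hours and 30.0% at 56 days. Their median log2 ratio was 0.35 and 0.11. At 24 hours the Akt1 ratio lies on the other side of 1 from the endothelial-like value, and with TMM scaling it was 0.914. That scaling moves every whole-library ratio by -0.31 (log2) at 24 hours and -0.14 at 56 days, and every endothelial-like ratio by -0.05 at both times. The share of endothelial-like cells, the class richest in Akt1 UMIs, was 36.3% in CON and 62.0% in IR at 24 hours. How far that share moves the whole-library ratio was not tested.

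The wider Akt pathway was read from 61 genes in 4 role groups, without the 3 genes above: kinases, repressors, receptors and adaptors, and downstream targets. At 24 hours in endothelial-like cells, 7 of 56 measured genes were at least 1.5-fold higher and 1 was lower, where 15.7% and 6.24% of all 11122 measured genes were. The median log2 ratio was 0.10 for the list and 0.08 for all genes. At 56 days 4 of 54 were higher and 11 lower, where 12.7% and 12.6% of 10334 genes were, with medians of -0.08 and 0.02. The list thus lay near the other genes at 24 hours, with more members lower than higher at 56 days.

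Of 7 receptors and adaptors measured, 1 was at least 1.5-fold higher at 24 hours and 3 were lower at 56 days. Over all measured genes these shares were 15.7% and 12.6%. Insr, the insulin receptor, had a ratio of 1.94 (1.43 to 2.68) at 24 hours and 0.602 (0.446 to 0.805) at 56 days. Tek, the angiopoietin receptor of endothelium, had 0.569 (0.508 to 0.636) at 56 days, from 1058 and 451 UMIs. Met, the hepatocyte growth factor receptor, had 0.5005 from 16 and 6 UMIs, with an interval that holds 1 (0.160 to 1.35).

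Among kinases and their partners, Pik3r2, a regulatory subunit of PI3-kinase, had 2.42 (1.10 to 6.30) at 24 hours from 7 and 54 UMIs. Mlst8, an mTOR complex subunit, had 0.601 (0.359 to 1.03). At 56 days Rictor, the scaffold of mTORC2, had 0.634 (0.511 to 0.782), and Pdpk1, the kinase PDK1 that activates Akt, had 0.607 (0.440 to 0.829). No kinase of the 13 measured was at least 1.5-fold higher at 56 days, where 12.7% of all measured genes were.

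Of 19 repressors measured, 2 were at least 1.5-fold higher at 24 hours, and 1 was higher and 4 lower at 56 days. Over all measured genes these shares were 15.7%, and then 12.7% and 12.6%. At 24 hours Trib1, a pseudokinase of the tribbles family, had 1.95 (1.30 to 3.02), and Tsc2, which restrains mTORC1, had 1.73 (1.198 to 2.58). At 56 days Tsc2 had 1.58 (1.12 to 2.22). Ppp2r5a, a regulatory subunit of phosphatase PP2A, had 0.546 (0.487 to 0.611) at 56 days from 1064 and 435 UMIs. The Akt phosphatases Phlpp1 and Phlpp2 had 0.560 (0.420 to 0.740) and 0.586 (0.317 to 1.04).

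Of the downstream targets, 2 of 16 were higher at 24 hours, and 3 of 15 were higher and 1 lower at 56 days. Over all measured genes these shares were 15.7%, and then 12.7% and 12.6%. Pmaip1, the pro-apoptotic NOXA and also a p53 target, had 1 UMI in the control and 67 in the irradiated library at 24 hours, a ratio of 21 (3.64 to 842). Rptor, the scaffold of mTORC1, had 1.71 (1.10 to 2.77). At 56 days Eif4ebp1, a translation repressor, had 1.61 (1.29 to 2.02), Foxo3, a transcription factor that Akt inhibits, had 1.59 (1.03 to 2.46), and Gsk3a, a kinase that Akt inhibits, had 1.57 (1.15 to 2.16). Bcl2l11, the pro-apoptotic BIM, had 0.530 (0.319 to 0.854).

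**Figure D4:**
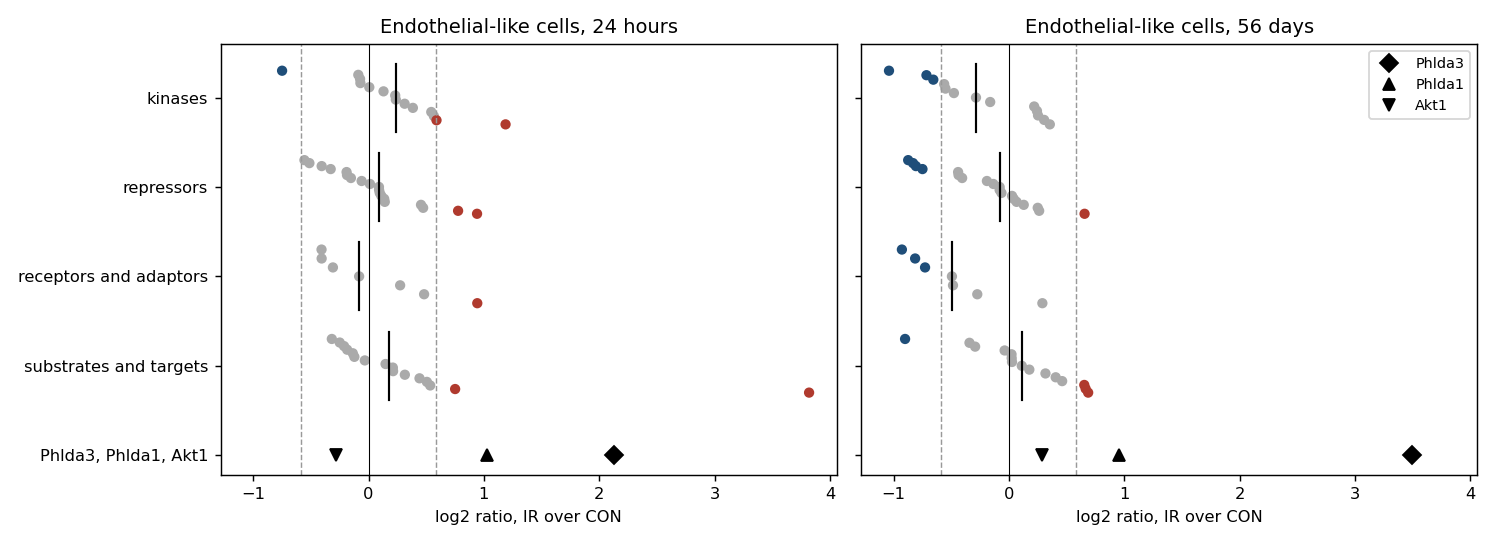
Log2 IR over CON ratio in endothelial-like cells of each measured Akt-pathway gene (points, red where at least 1.5-fold higher and blue where lower, beyond the dashed lines) by role group, with group medians as bars, and of Phlda3, Phlda1 and Akt1 in black. At 56 days 4 of 54 genes were higher and 11 lower, and Phlda3 lies far to the right.

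Beside the Akt list, 16 of 19 measured p53 targets were at least 1.5-fold higher and 0 lower in endothelial-like cells at 24 hours, and 13 were higher and 2 lower at 56 days. Their median log2 ratio was 1.45 and 1.34, against the same backgrounds as the Akt list. The lower ones were Sesn1 (0.553), a stress-induced antioxidant protein, and Rrm2b (0.643), a ribonucleotide reductase subunit. Of 20 immediate early and ERK feedback genes, the kind Phlda1 is known with, 4 of 19 measured were higher and 0 lower at 24 hours, and 3 of 18 were higher and 3 lower at 56 days, with medians of 0.14 and -0.02. Phlda3 is a known p53 target, so it belongs by background with the first of these lists. Btg2 is on both lists.

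Across 36 class-by-library sums, the genes whose log2(CPM + 10) was most like that of Phlda3 were Enho (Pearson r 0.88), Gkap1 (0.88), Cltb (0.88), Smim10l1 (0.87) and Aen (0.86), of 9858 genes. Aen encodes a p53-induced nuclease. Cdkn1a had 0.70, Mdm2 0.16, Phlda1 0.27 and Akt1 -0.02. The genes most like Phlda1 were Plxdc2, Zfhx3, Lrp1, Rcn3 and Efemp2 (0.87 to 0.88), and those most like Akt1 were Tpm4, Actg1, Tbc1d20, Atox1 and Stat3 (0.84 to 0.85). These points share libraries and depth, so the values describe these sums only.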

How the data were processed

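Single cells of mouse hindlimb were measured by 10x Genomics 3′ RNA sequencing in 4 libraries, 1 per group. Per the submitters' processing notes, Cell Ranger 5.0.0 and mm10 were used, and the deposited matrices hold UMI counts per gene and barcode, with no normalization. The series' design text gives a depth of 10000 reads per cell. Barcodes in the files numbered 1471, 2763, 1822 and 1030, of which 331 had too few genes and 361 too many mitochondrial UMIs (some had both).

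Each barcode was placed by the number of distinct markers detected from 12 lists. A class needed at least 2 markers and a lead of at least 2, and at least 5% of UMIs from myofibre markers made a barcode myofibre-rich. All others were left as mixed or ungated, and no doublet caller was run and ambient RNA was not removed. In each named gate no marker of another class was among its 10 genes of highest fold. UMIs were summed per class and library with Python 3.11.15, NumPy 2.4.6, SciPy 1.17.1 and pandas 2.3.3. Ratios carry exact conditional binomial intervals, levels exact Poisson ones and shares exact binomial ones. Log2 ratios used a prior count of 0.5. TMM factors came from edgeR 4.0.16 in R 4.3.3, as an alternative only. With 1 library per group no test was made.

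The members and lists were chosen with earlier results of these data known. Beside the members, the rule for named genes took, per Akt role group and time in endothelial-like cells, up to 3 genes past 1.5-fold in each direction, ranked by the bound of the interval nearest 1, Cdkn1a and Mdm2 for comparison, and the 5 genes most like each member among genes with at least 200 UMIs. Tenocyte-like Phlda3, Sesn1 and Rrm2b were named after their values were seen. A gene that this rule also named is not reported here.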

Additional observations from a re-analysis of the deposited data

Results flagged for a closer look

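In 3 results the ratios of 2 classes or of both times lay on opposite sides of 1 with intervals that exclude 1. None of these differences was tested, since each group is 1 library. At 56 days the Phlda1 ratio was 12.7 in macrophage-like cells and, in the mural class (pericyte or smooth muscle-like), 0.470. The macrophage-like value rests on 4 and 50 UMIs. At 56 days the Akt1 ratio was 1.22 in endothelial-like cells and 0.501 in FAP-like cells, the latter from 52 and 10 UMIs. In endothelial-like cells the Akt1 ratio was 0.823 at 24 hours and 1.22 at 56 days. The differences between classes come from the same pair of libraries, at 56 days, and that between times from separate pairs.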

How the results depend on the processing

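No paired analysis was possible because each group is 1 library, and for the same reason no replicate could be left out. Over the ratios of the 3 genes in all cells and in endothelial-like cells, 91 of the values under other settings stayed close to the reported value, 14 moved and 3 turned a ratio whose interval had excluded 1; the cause was not tested. In the other classes 64 stayed close and 13 moved, mostly with thinned cells, and of the list counts 38 stayed close and 10 moved. Akt1 in all cells at 24 hours turned to 0.920 with thinned cells, 0.973 with a total without mitochondrial, ribosomal protein and haemoglobin genes, and 0.914 with TMM scaling, and at 56 days it was 1.04 thinned. Phlda3 stayed on its side of 1 under every setting run, in every class measured. In all cells at 24 hours it was 4.38 with that reduced total, 4.12 with TMM and 4.49 with cells weighted equally, and 5.27 at 56 days so weighted. In endothelial-like cells at 24 hours it was 5.38 thinned and 3.66 in cells with no marker of another class (233 and 768 cells), where Akt1 was 0.666. Phlda1 in all cells at 24 hours was 1.12 thinned, 1.27 with TMM and 1.29 weighted equally. At 56 days it was 0.873 thinned, 0.897 weighted equally and 0.821 without the top 5% of cells by UMIs, all on the other side of 1 from the reported 1.13, whose interval holds 1. With a 2-fold threshold the Akt list had 2 higher and 0 lower genes at 24 hours, and 0 and 1 at 56 days, and TMM gave 2 lower at 24 hours. The p53 list then had 0 lower at 56 days, and the immediate early list 2 higher at 24 hours, and 1 higher and 1 lower at 56 days. At least 50 summed UMIs also gave 1 higher at 56 days. The share of all measured genes was not computed under these other settings, so nothing is read from these list counts. Leaving out the richest cell per library was chosen after seeing the data. Classes other than endothelial-like hold few UMIs of these genes.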
